A study of Homo sapiens with 6 samples.

Results

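The genes of homologous recombination and of the Fanconi anaemia pathway were followed through an in vitro cleavage assay. The 41 members were taken by name from a list of these repair genes, and all 41 were among the 14398 genes tested, out of 57905 gene identifiers counted. Total RNA of NCI-H929, a human multiple myeloma cell line, had been kept for 1 h at 37 °C with recombinant IRE1 (amino acids 467 to 977 of ERN1) or in the same buffer lacking the enzyme, and poly(A) libraries were then sequenced. There were 3 IRE1-treated and 3 control libraries. IRE1 is the endoplasmic reticulum stress sensor whose RNase domain cuts selected RNAs, and the comparison asks which of the repair genes had fewer counts after contact with it. The paper describes cut mRNAs as losing the part upstream of the cut at poly(A) selection. Gene counts keep the reads downstream, so a gene with no call here is not shown to be uncut. The paper's own test was on single exons, which were not fitted here. The control libraries held 25678499, 22433916 and 21144515 counts on genes and the IRE1-treated libraries 19615715, 21525644 and 23041598. Nothing in the labels says that the replicates came from separate cultures, so p-values measure the spread between these samples only, which may be technical.

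Homologous recombination repairs a broken chromosome by copying the intact sister chromatid. The broken ends are resected to single strands, BRCA1, PALB2 and BRCA2 prepare these for strand exchange, and the joined molecules are later cut apart or dissolved. The Fanconi pathway deals with crosslinks between the DNA strands: a core complex ubiquitinates FANCD2 and FANCI at the stalled fork, and nucleases held by SLX4 then unhook the lesion.

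The libraries were not equally alike. Between pairs of control libraries the mean chi-square per gene lay between 2.21 and 3.07, and between IRE1-treated replicates 2 and 3 it was 3.39. IRE1-treated replicate 1 stood apart, with 7.03 against replicate 2 and 10.95 against replicate 3. Reads on mitochondrial genes made up 4.89 to 4.97% of the counts in the controls and 5.12 to 5.33% after IRE1, and the part of this shift in the results below was not tested. Of 10 plasma cell markers, all had counts in every library and their summed level was 268353 to 273099 normalised counts in the controls and 267943 to 286678 after IRE1, JCHAIN being the most abundant. The single markers went both ways: in PRDM1 (means 10107 and 8512) and IRF4 (27670 and 25778) all treated libraries lay below all controls, and in MZB1 (19206 and 23856) and TNFRSF17 (10794 and 12828) all lay above. Of the other cell types looked at, the 5 B cell markers summed to 59.2 to 73.6 normalised counts per library, with CD22 at 0 in all of them. The 5 T cell markers summed to 903 to 942 in the controls and 952 to 1181 after IRE1, nearly all of it CD3E, with CD5 at 0 throughout. The 5 epithelial markers summed to 1262 to 1353 and 1425 to 1611, KRT18 being the most abundant and KRT19 at 0. The 5 monocyte markers summed to 23.68 to 43.98 in the controls and 23.3 to 32.8 after IRE1, CSF1R being the most abundant, and the erythroid markers to at most 4.23. The part of these marker levels in the results was not tested. In bulk RNA, fewer cells of a kind and less RNA per cell cannot be told apart, and nothing in the labels says whether control and treated reactions shared one RNA preparation. As a check of the treatment, BLOC1S1, a lysosomal trafficking gene known to be cut by IRE1, had 607, 584 and 651 normalised counts in the controls and 276, 230.4 and 212 after IRE1. The groups were far apart, and the treated mean was 39.0% of the control mean (log2 fold change -1.37, SE 0.0950, and adjusted p = 1.25e-06 by the quasi-likelihood test of edgeR with Benjamini and Hochberg's adjustment). XBP1, whose mRNA IRE1 opens for splicing, was the other check. Its gene-level counts do not separate spliced from unspliced RNA, and they sum the reads on both sides of the cut. The paper reports clearly fewer reads in XBP1 exons upstream of the cut after IRE1, and similar reads downstream. The gene-level counts came to 59861 ± 1294 (SD, n = 3) against 56138 ± 1720.4 (SD, n = 3). The log2 fold change of -0.09 missed the threshold (adjusted p = 0.143, edgeR), although all treated libraries lay below all controls. With each library's dependence on transcript length and GC removed it was -0.20 and passed (adjusted p = 0.000772, edgeR), and it also passed with library size scaling and without IRE1-treated replicate 1. BLOC1S1 overlaps an unnamed gene on its own strand and ITGA7 on the other.

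Of the 41 members, 7 were lower after IRE1 and 1 was higher at an adjusted p under 0.05. RNF168, BARD1, TP53BP1, RAD50, SLX4, BRCA1 and MDC1 fell, and RAD51C rose. The members that fell made up 17.1% of the list, where 12.4% of all tested genes were lower, and the member that rose made up 2.44%, where 10.3% of all tested genes were higher. The median log2 fold change was -0.07 over the members and 0.00447 over all tested genes, and 28 members had a negative value. In 13 members (31.7%) every treated library lay below every control library, against 20.0% of the tested genes, and in 2 members (4.88%) every treated library lay above, against 19.1%. Scaled by library size alone, 13 members were lower and 0 higher, where 18% and 4.74% of all tested genes were, and the lower share of all calls went from 54.5% to 79.2%. In that scaling RAD51C kept a positive log2 fold change but missed the threshold, and RBBP8, EXO1, XRCC3, FANCA and FANCG turned from slightly positive to slightly negative. DESeq2 and upper quartile scaling turned the sign of no member.

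**Figure D1:**
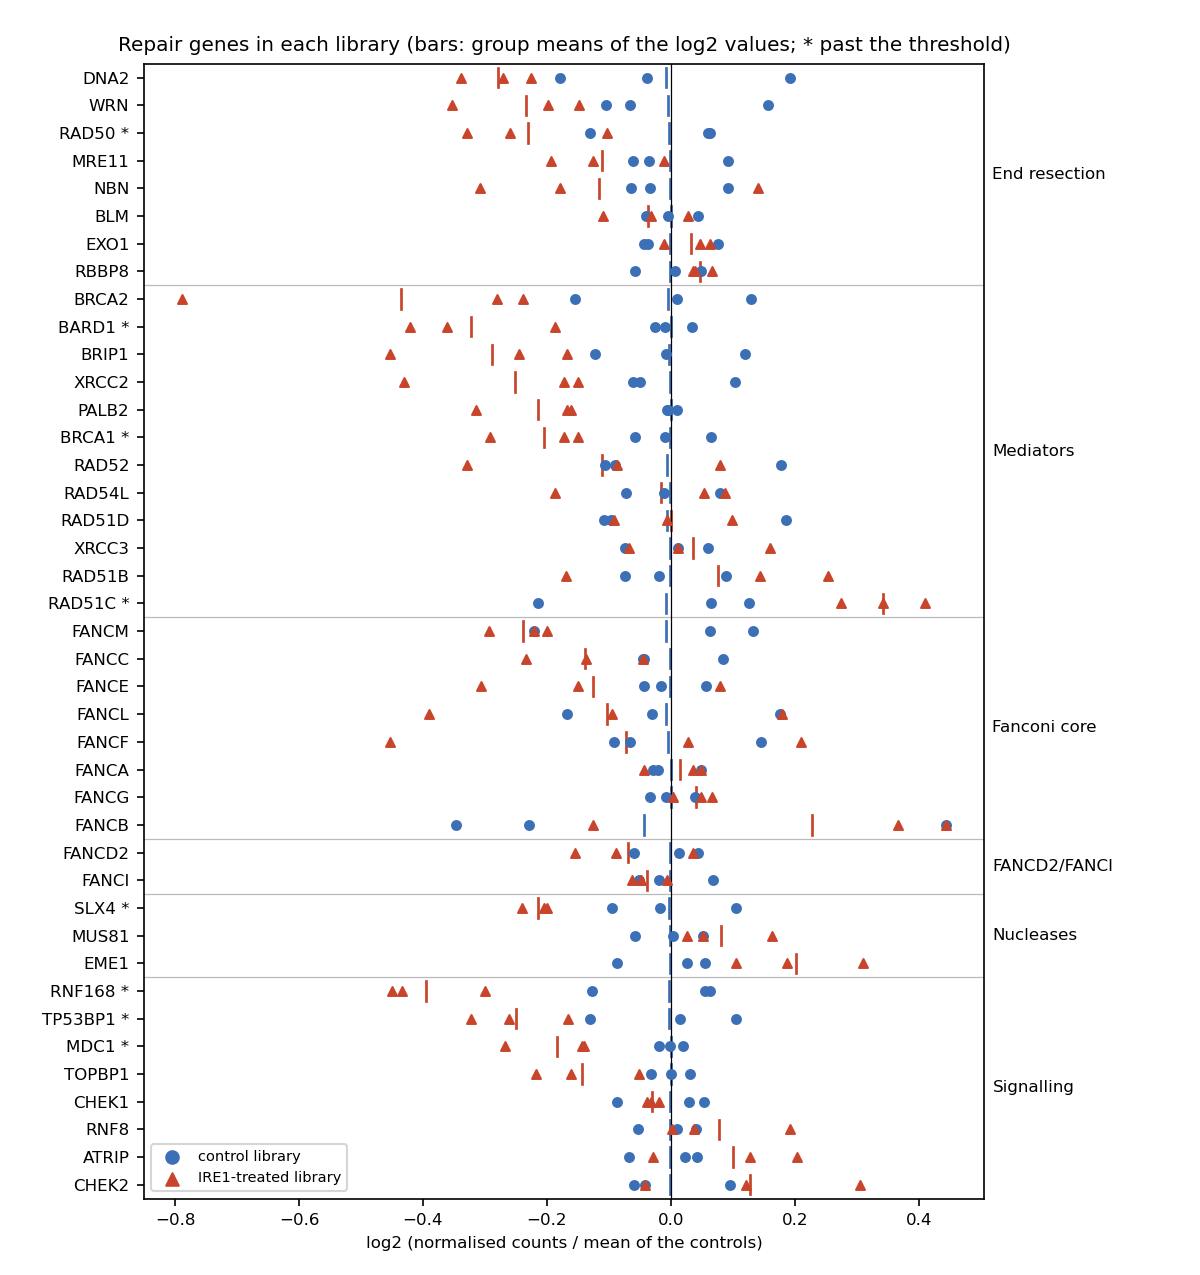
Each row is a member, grouped by role, and each point is a library, plotted as the log2 of its normalised counts over the mean of the 3 controls (circles, controls; triangles, IRE1-treated; bars, group means of the log2 values). An asterisk marks the 8 members past the threshold, and the triangles of RNF168, BARD1, TP53BP1, SLX4, BRCA1 and MDC1 lie left of all circles while those of RAD51C lie right of them.

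The calls changed when single libraries were left out and when a trend on transcript length and GC together was removed. Leaving out control replicate 1 ended all 7 lower calls (9 members lower at an unadjusted p under 0.05, edgeR) and kept RAD51C, where 6.68% of all tested genes were lower and 4.88% higher. The 7 log2 fold changes stayed negative, from -0.16 in SLX4 to -0.36 in RNF168, and those of BRCA1 (-0.21) and MDC1 (-0.19) were slightly larger in size than with all libraries. Without control replicate 2, RNF168, SLX4 and TP53BP1 stayed lower and RAD51C missed the threshold (all genes, 6.82% lower and 4.38% higher), and without control replicate 3 the lower members were BRCA1, RAD50 and RNF168 (9.28% and 6.46%). Without IRE1-treated replicate 2 no member was called in either direction by edgeR quasi-likelihood, where 7.42% of all genes were lower and 6.09% higher. At an unadjusted p under 0.05 in that fit, 11 members were lower and 1 higher. The 7 log2 fold changes stayed negative there, from -0.14 in MDC1 to -0.37 in RNF168, and that of RAD51C was 0.34. Without IRE1-treated replicate 1, the library that stood apart, 8 members were lower (the same 7 and BRIP1) and 1 higher, against 11.4% and 9.80% of all genes. Without IRE1-treated replicate 3 there were 11 lower and 2 higher, against 15.3% and 14.4%. When each library's dependence on transcript length and GC was removed by a loess fit (below, the trend), 0 members were lower and 1 was higher by edgeR, where 4.58% and 6.38% of all tested genes were. At an unadjusted p under 0.05 that fit held 1 lower and 4 higher members, where 1509 of all 14398 tested genes were lower and 1965 higher (edgeR). The median of the members became 0.01. For the fits with a library left out, the share of all genes at the unadjusted cutoff is not given, so those member counts have no background.

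The members that fell had long transcripts. The canonical transcript of the members had a median of 4622 bases, against 3367 in the tested protein-coding genes. All 7 members that fell belong to the longest quartile of protein-coding transcripts (5263 bases and over), which held 16 members, and in that quartile 43.8% of the members and 38.5% of all genes were lower. None of the 25 members in the shorter quartiles was lower by edgeR, where 0.229%, 2.19% and 15% of all genes were, from the shortest quartile up. RAD51C, the member that rose, is in the second quartile, where 7.59% of all genes were higher. The median log2 fold change of the members was -0.22 in the longest quartile, where that of all genes was -0.21, and -0.07 in the quartile of 3368 to 5262 bases, where it was -0.08. Across the 41 members Spearman's rho between transcript length and log2 fold change was -0.68, and across the 12225 protein-coding genes it was -0.64. Between GC content and log2 fold change it was 0.39 and 0.25. Length and GC were removed together and not one at a time. These correlations are across genes, which share the same 6 libraries and are not independent replicates. With the trend removed, rho over the members was 0.02 for length and 0.00261 for GC, and over the protein-coding genes it was -0.12 for length and 0.02 for GC, so that some dependence on length was left.

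**Figure D2:**
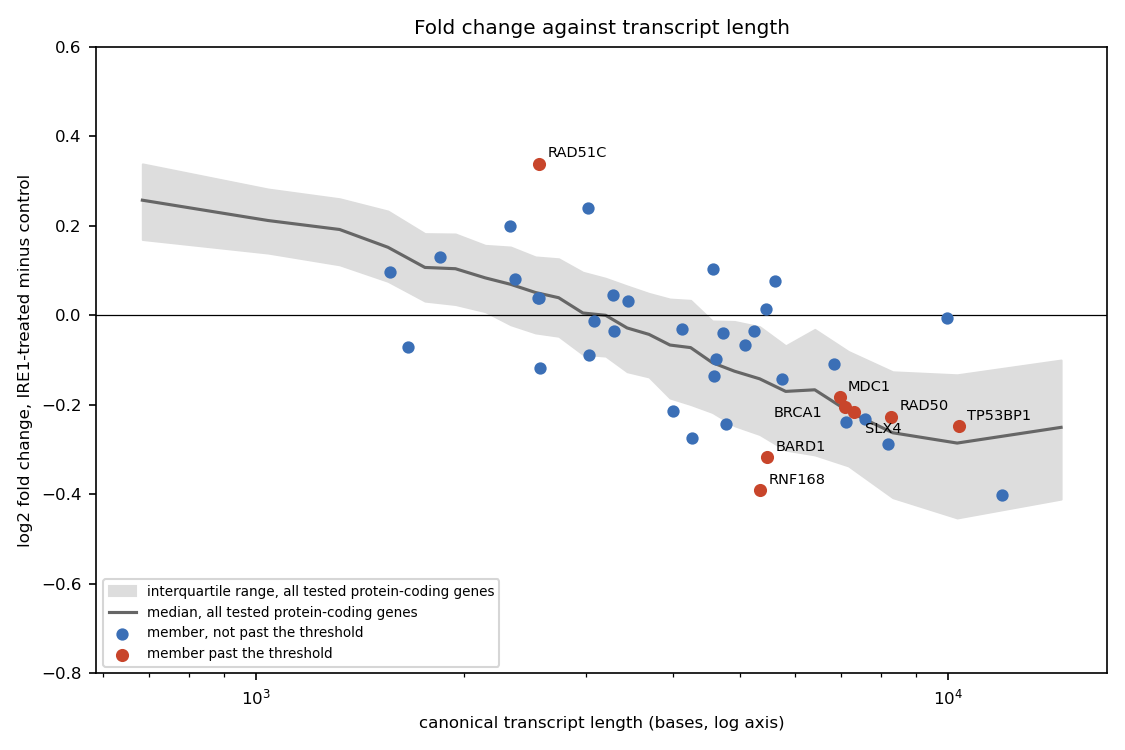
Log2 fold change (IRE1-treated minus control) against canonical transcript length in bases on a log axis. Points are the 41 members, red where past the threshold, the line is the running median of the 12225 tested protein-coding genes and the band their interquartile range. BARD1 and RNF168 lie below the band, RAD51C lies above it, and the other 5 lower members lie close to the line.

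Among the 8 genes that recognise and resect the broken ends, RAD50 was the single one past the threshold (12.5%, where 12.4% of all tested genes were lower). RAD50 is the ATPase that joins MRE11 and NBN in the complex that tethers DNA ends. The gene (ENSG00000113522, chr5:131891711-131982041, plus strand, GRCh37) had 2156, 2149.9 and 1884 normalised counts in the control libraries and 1643, 1724 and 1922 in the IRE1-treated ones. IRE1-treated replicate 3 lay above control replicate 3, so that the groups overlapped. The mean went from 2063 ± 155 to 1763 ± 144 (SD, n = 3 each), 85.4% of the control, with a log2 fold change of -0.23 (SE 0.0662, edgeR quasi-likelihood adjusted p = 0.0224). With the length and GC trend removed it was 0.02. On exon counts, which were not fitted here, the paper lists RAD50 among the mRNAs lowered by recombinant IRE1. The partners of RAD50 did not pass: the nuclease MRE11 had a log2 fold change of -0.11 and NBN, which recruits ATM, one of -0.10. RBBP8, the resection activator also called CtIP, had 0.05, the exonuclease EXO1 0.03 and the BLM helicase -0.03. DNA2, the nuclease-helicase of long resection, had -0.27 (95% interval -0.56 to 0.02), and WRN, the helicase mutated in Werner syndrome, had -0.23 (-0.42 to -0.04). In DNA2 and WRN all treated libraries lay below all controls although neither passed the test. With single libraries left out, DNA2 ranged from -0.36 to -0.17, WRN from -0.28 to -0.14 and NBN from -0.23 to -0.0049. An unnamed gene overlaps RAD50 on its own strand and TH2LCRR on the other. The counts of RAD50 may include reads of TH2LCRR, because the strand setting of the counting is not given in the sources used here, and reads shared with the unnamed gene are not separated by strand at all.

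The 12 mediators of strand exchange held 2 members that fell (16.7%) and the member that rose (8.33%). Of all tested genes 12.4% were lower and 10.3% higher. BARD1, the ring-finger partner of BRCA1, had 359, 344 and 348 normalised counts in the controls and 262, 273 and 308 after IRE1 (ENSG00000138376, chr2:215590370-215674407, minus strand). All treated libraries were below all controls. The means were 350.3 ± 7.40 and 281 ± 24.2 (SD, n = 3), a log2 fold change of -0.32 (SE 0.0898, edgeR quasi-likelihood adjusted p = 0.0194), and with the trend removed it was -0.14 (adjusted p = 0.297, edgeR). BRCA1 itself, which promotes resection and recruits PALB2, had 1042, 1097 and 1007 counts against 945, 856 and 930.5 (ENSG00000012048, chr17:41196312-41322262, minus strand). These too did not overlap, and IRE1-treated replicate 2 was the lowest. The BRCA1 mean went from 1048 ± 45.3 to 911 ± 47.9 (SD, n = 3), a log2 fold change of -0.20 (SE 0.0617, edgeR quasi-likelihood adjusted p = 0.0265), and 0.01 with the trend removed.

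BRCA2, which acts on the resected strand, had the lowest log2 fold change of all members, -0.40 (95% interval -0.71 to -0.09), and did not pass (edgeR quasi-likelihood, adjusted p = 0.0584). With the trend removed it was -0.07, and the lowest was that of RNF168. The counts of BRCA2 were 138, 168 and 154 in the controls and 88.8, 130.0 and 126 after IRE1, so that the groups did not overlap at a low level of counts. Against the control mean, IRE1-treated replicates 1, 2 and 3 had log2 values of -0.79, -0.24 and -0.28. With single libraries left out the log2 fold change of BRCA2 ranged from -0.49 to -0.25, and that of RNF168 from -0.45 to -0.36. BRCA2 was therefore not the lowest in every such fit. BRCA2 was called lower with library size scaling, with no filter and with limma on the authors' CPM. Its bridge to BRCA1, PALB2, had -0.21 and the helicase BRIP1 -0.29. Both had all treated libraries below all controls and missed the threshold.

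The paralogue genes RAD51B, RAD51C, RAD51D, XRCC2 and XRCC3, whose products form complexes that assist strand exchange, had log2 fold changes of both signs. RAD51C, the paralogue common to both paralogue complexes, had 358, 283 and 343 normalised counts in the controls and 436, 415 and 396 after IRE1 (ENSG00000108384, chr17:56769934-56812972, plus strand). Every treated library was above every control, and control replicate 2 was the lowest. The mean rose from 328 ± 39.8 to 416 ± 19.6 (SD, n = 3), a log2 fold change of 0.34 (SE 0.0948, edgeR quasi-likelihood adjusted p = 0.0177). It was 0.31 with the trend removed (adjusted p = 0.0395, edgeR), and over all alternatives the adjusted p of edgeR, DESeq2 or limma ranged from 0.00567 to 0.119. RAD51B had 0.10, RAD51D -0.0047 and XRCC3 0.04, with overlapping groups. XRCC2 had -0.24, all treated libraries being below all controls. RAD51D has a canonical transcript of 9966 bases, longer than those of RAD50 and BRCA1, and its treated mean was 100.2% of the control mean, but 2 other genes overlap it on its own strand, so that its counts are uncertain. RAD52, which anneals single strands, had -0.09, and RAD54L, a DNA translocase, had -0.01.

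None of the 8 Fanconi core genes passed the threshold by edgeR, DESeq2 or limma, and 0 had an unadjusted p under 0.05. Of all tested genes 12.4% were lower and 10.3% higher by edgeR, 5.91% and 5.13% by DESeq2, and 14.8% and 11.9% by limma. At an unadjusted p under 0.05 (edgeR), 2615 of all 14398 genes were lower and 2406 higher. The median canonical transcript of the 8 core genes was 3154 bases. Their log2 fold changes ran from -0.24 for FANCM, the translocase that brings the core complex to the fork, to 0.24 for FANCB, which had the fewest counts of all members (33.8, 21.2 and 19.6 in the controls, 22.8, 33.8 and 32.1 after IRE1). The FANCB groups overlapped and its 95% interval ran from -0.36 to 0.83, so that a change of that size was not detectable at this depth. FANCL, the ubiquitin ligase of the complex, had -0.07, FANCA 0.01, FANCC -0.13, FANCE -0.12, FANCF -0.03 and FANCG 0.04. The substrates of the complex were abundant. FANCI had 2628, 2476 and 2421 counts in the controls and 2498, 2402 and 2427 after IRE1, and FANCD2 had 980.1, 912 and 959 and 854, 974 and 895. In both genes the groups overlapped. The 95% interval of the log2 fold change was -0.14 to 0.07 for FANCI and -0.20 to 0.07 for FANCD2 (adjusted p = 0.623 and 0.504, edgeR quasi-likelihood).

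Of the 3 nuclease genes, SLX4 fell (33.3%, where 12.4% of all tested genes were lower). SLX4 is the scaffold that holds the structure-specific nucleases in crosslink unhooking. It had 727, 633 and 668 normalised counts in the controls and 572, 589 and 587 after IRE1 (ENSG00000188827, chr16:3631182-3661607, minus strand), and all treated libraries were below all controls. The mean went from 676 ± 47.8 to 583 ± 8.90 (SD, n = 3), a log2 fold change of -0.22 (SE 0.0702, edgeR quasi-likelihood adjusted p = 0.0369), and -0.05 with the trend removed. SLX4 is the lower member that was not called by DESeq2, where 0 of the 3 nuclease genes were lower (1 at an unadjusted p under 0.05 in edgeR). The nuclease MUS81 had 0.08, and its partner EME1 had 0.20 with all treated libraries above all controls and an adjusted p of 0.101 (edgeR).

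The signalling genes held 3 of the 7 lower members, among 8 (37.5%, where 12.4% of all tested genes were lower). In the longest quartile of transcripts, to which these 3 belong, 38.5% of all genes were lower. With the trend removed 0 of the 8 signalling genes were lower by edgeR. RNF168, a ubiquitin ligase that marks histones beside a break, had 277, 243 and 276 normalised counts in the control libraries and 194, 197 and 216 in the treated ones (ENSG00000163961, chr3:196195654-196230639, minus strand). The highest treated library was below the lowest control. RNF168 went from 265 ± 19.4 to 202 ± 11.7 (SD, n = 3), 76.2% of the control, with a log2 fold change of -0.39 (95% interval -0.60 to -0.18, adjusted p = 0.0114, edgeR quasi-likelihood) and of -0.25 with the trend removed (adjusted p = 0.108, edgeR).

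TP53BP1 binds the ubiquitinated histone and restrains resection. It had 949, 805 and 891 counts in the controls and 705, 736 and 786 after IRE1 (ENSG00000067369, chr15:43695259-43802926, minus strand), without overlap. The means were 882 ± 72.2 and 742 ± 40.5 (SD, n = 3), and the log2 fold change was -0.25 (SE 0.0715, edgeR quasi-likelihood adjusted p = 0.0208) and 0.02 with the trend removed. MDC1, the adaptor that gathers RNF8 at damaged chromatin, had 3620.3, 3718 and 3665 counts in the controls and 3329, 3048 and 3322 in the treated libraries (ENSG00000137337, chr6:30667584-30685224, minus strand). Its mean went from 3668 ± 49.0 to 3233 ± 160.4 (SD, n = 3), 88.1% of the control, with a log2 fold change of -0.18 (SE 0.0493, edgeR quasi-likelihood adjusted p = 0.0151). With the trend removed it was -0.01. TUBB and an antisense transcript overlap MDC1 on the other strand, TUBGCP4 overlaps TP53BP1 and RPL21P4 overlaps BRCA1 in the same way, and so do unnamed genes at RNF168 and SLX4, so that reads of these genes cannot be told apart where the counting did not use strand. Another unnamed gene overlaps BRCA1 on its own strand, where strand does not separate the reads. The checkpoint adaptors ATRIP and TOPBP1 had 0.10 and -0.14, the kinases CHEK1 and CHEK2 -0.03 and 0.13, and RNF8 0.08. None of these 5 passed, and in TOPBP1 all treated libraries lay below all controls. CHEK2 has 7 pseudogene copies in the annotation, and ATRIP and CHEK1 overlap TREX1 and STT3A on the same strand, so that their counts are uncertain.

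**Figure D3:**
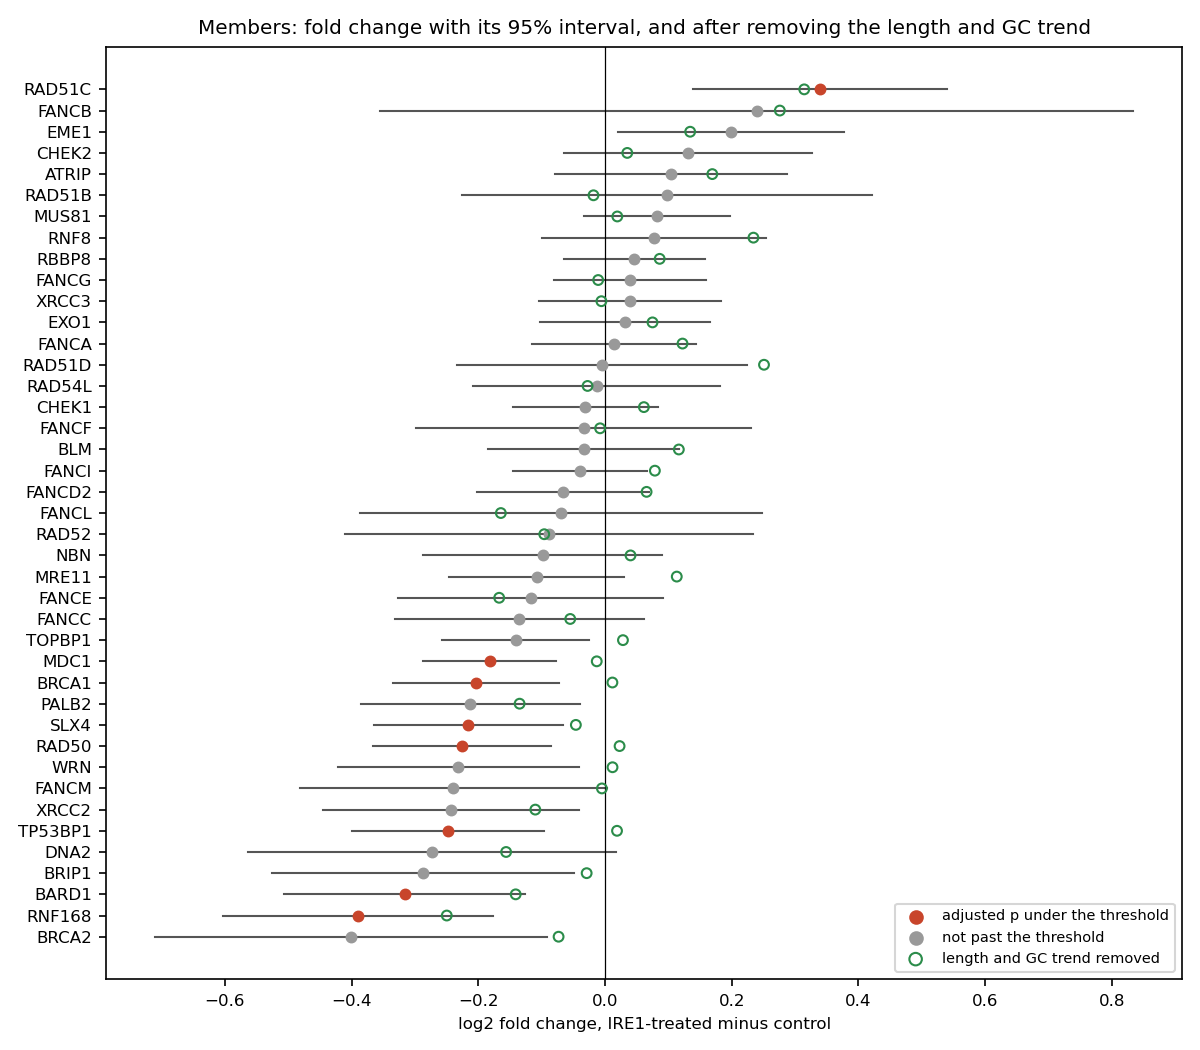
The 41 members ordered by log2 fold change (filled points) with its 95% interval (lines), red for the 8 past the threshold and grey for the rest. Open circles give the fold change after the dependence on transcript length and GC was removed, which sits to the right of the filled point in all 7 lower members, while for RAD51C it sits to the left, at 0.31 against 0.34.

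The members differ in level by a wide range. Measured per kilobase of exon union in the controls, MDC1 was the highest at 481 normalised counts, then MUS81 at 315 and RBBP8 at 271, and FANCM at 10.6, FANCL at 3.48 and FANCB at 1.87 were the lowest. With the canonical transcript in place of the exon union the highest were MUS81 at 726, FANCI at 530.0 and MDC1 at 526, and the lowest RAD51D at 23.5, BRCA2 at 12.8 and FANCB at 8.24, so that the order depends on which gene model is used.

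A consensus described for sites that IRE1 cuts is CUGCAG in a hairpin loop. The paper found it near the cut in only a part of its candidate mRNAs, although all of these candidates lost their upstream region. Here CTGCAG was searched in the canonical transcript of each tested protein-coding gene and folded with 15 bases on either side, and a site counted when the first G was unpaired inside a hairpin loop between 5 and 11 bases long on a stem of 3 or more stacked pairs. A match is a description and not a cut, and a transcript with no match is not shown to be uncut. The transcript of XBP1 searched here had 0 CTGCAG, so that of the 2 treatment checks BLOC1S1 alone is read by this search. The paper describes this consensus, within a stem-loop, in XBP1 mRNA too, so the 0 holds for the searched transcript only. Of the 41 members 37 had CTGCAG (90.2%, against 85.3% of 12225 genes) and 15 had a counted site (36.6%, against 35.4%). With a loop of exactly 7 bases 2 members had one (4.88%, against 7.10%), and with 30 bases folded on either side 6 members did (14.6%, against 20.4%). Per kilobase of transcript the members had 0.685 CTGCAG and all genes 0.806. In that wider fold the sites given here for BLOC1S1, BRCA1 and MDC1, SLX4 site C and FANCD2 sites A and C no longer counted, SLX4 sites A and B and FANCD2 site B still did, and TP53BP1, with none before, had 1. Of the members that fell, BRCA1, MDC1, RAD50 and SLX4 had a counted site. Those of BRCA1, MDC1 and SLX4 are shown, with BLOC1S1 as the check and FANCD2 as an example with 4 counted sites and no call, which was chosen after its values were seen. Each is written 5′ to 3′ on the strand of the gene in GRCh37, with the CTGCAG in capitals.
BLOC1S1: gagaggctatcaCTGCAGcgacctgcctga
BRCA1: agccactactgaCTGCAGccagccacaggt
MDC1: cgtgtggtccttCTGCAGcgaagccaaacc
SLX4 site A: caggctgtgcggCTGCAGacagcacagcct
SLX4 site B: cggcatttgagtCTGCAGgtgaagaggagg
SLX4 site C: gagctgcgggagCTGCAGgcagagctgagg
FANCD2 site A: gagaagttggatCTGCAGcattgtgttttg
FANCD2 site B: agtgacccatatCTGCAGtgggaatgaagc
FANCD2 site C: gttggttcattcCTGCAGtgagcagtctcc

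The BLOC1S1 site lies at chr12:56110729-56110758 (plus strand, exon 2 of 4) in the coding sequence. The BRCA1 site lies at chr17:41197677-41197706 (minus strand, exon 23 of 23), in the 3' UTR. That of MDC1 lies at chr6:30680378-30680407 (minus strand, exon 5 of 15) in the coding sequence. The SLX4 sites are in the coding sequence at chr16:3651009-3651038 (minus strand, exon 5 of 15), chr16:3632642-3632671 (minus strand, exon 15 of 15) and chr16:3632490-3632519 (minus strand, exon 15 of 15). The FANCD2 sites shown are coding, at chr3:10084752-10084781 (plus strand, exon 12 of 44), chr3:10091075-10091104 (plus strand, exon 17 of 44) and chr3:10105493-10105522 (plus strand, exon 21 of 44). Counted from the start of the transcript, the site lies at 31.67% of the length in BLOC1S1, 80.53% in BRCA1 and 19.6% in MDC1. Those of SLX4 lie at 24.17%, 79.84% and 81.91%, and those of FANCD2 at 19.45%, 29.73% and 37.85%. RNF168, BARD1 and TP53BP1, which fell, and RAD51C, which rose, had CTGCAG but no counted site. Of the 15 members with a counted site 4 were lower (26.7%), against 18.4% of the 4329 genes with one, and of the 26 members with no counted site 3 were lower (11.5%), against 11.6% of the 7896 genes with none. The median transcript was 5452 bases in the members with a counted site and 3650 in those with none. After the trend was removed the median log2 fold change was 0.02 in the former and -0.01 in the latter.

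Other repair genes were read from lists of the same kind, with 117 of 119 genes tested. In these, 10 genes were lower (8.55%) and 17 higher (14.5%), where the members had 17.1% and 2.44%, and their median transcript was 3012 bases. Of all tested genes 12.4% were lower and 10.3% higher. Of 47 other recombination and Fanconi genes 4 fell and 7 rose: ERCC4, the nuclease partner of ERCC1, had -0.60 and RIF1, an effector of TP53BP1, -0.40, while SEM1, a small partner of BRCA2, had 0.37 and RPA3, a subunit of the single-strand binding complex, 0.32. The RPA3 call was lost under 12 of the alternatives, that of RAD23B (nucleotide excision) under 7 and those of POLB, XPA and XRCC6 in the other lists under 6 each. Among 10 other checkpoint genes 3 fell. ATM, the kinase that answers double-strand breaks, had 2003, 1991 and 1773 counts in the controls and 1193, 1329 and 1575 after IRE1, a log2 fold change of -0.49 (adjusted p = 0.000728, edgeR quasi-likelihood; -0.16 with the trend removed), and ATR, the kinase of stalled forks, had 739, 722 and 667 and 509.9, 562 and 584, a log2 fold change of -0.36 (-0.11 with the trend removed, adjusted p = 0.282, edgeR). Of 13 end joining genes the kinase PRKDC fell (-0.30) and XRCC6, a subunit of the Ku end-binding protein, rose (0.17). In base excision 0 of 20 genes fell and 4 rose, the polymerase POLB (0.24) and the endonuclease APEX1 (0.23) the most, with 0 lower at an unadjusted p under 0.05 and by DESeq2. In nucleotide excision 1 of 20 fell, RAD23B (-0.17), and 5 rose, the damage verifier XPA (0.31) and the kinase assembly factor MNAT1 (0.24) the most. With the trend removed 4 of the other repair genes were lower and 5 higher by edgeR, ERCC4, ATM and MNAT1 among them, and the calls of RIF1, SEM1, RPA3, ATR, PRKDC, XRCC6, POLB, APEX1, RAD23B and XPA were lost. RIF1 then had -0.04 and SEM1 0.18. On exon counts and by qRT-PCR, the paper reports ATM and ATR as putative IRE1 substrates. For ATR it also reports a stem-loop site, and a loss in stressed cells that was not seen with an IRE1 inhibitor. Exon counts were not fitted here, so the lost gene-level call of ATR does not bear on that evidence.

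**Figure D4:**
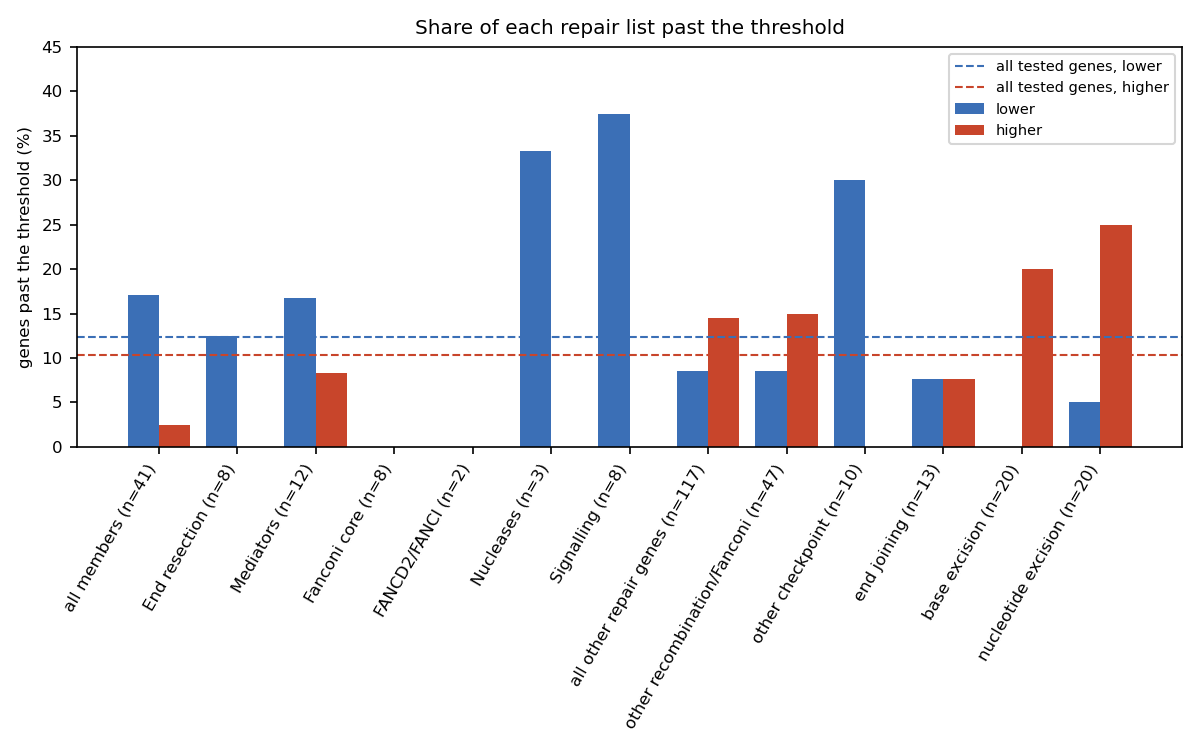
Share of the tested genes of each list past the threshold, lower in blue and higher in red, with the number tested under each bar pair and dashed lines for the shares of all 14398 tested genes (12.4% lower, 10.3% higher). The members have 17.1% lower and 2.44% higher, the Fanconi core genes have neither, and the base and nucleotide excision genes have more higher than lower calls.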

How the data were processed

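Counts per gene were deposited by the authors for each of 6 libraries. Per the labels, the 5 µg RNA reactions held 2 µg of enzyme and were stopped at 95 °C for 5 min, and the submitters' processing notes name cutadapt 1.12, STAR 2.5.3a, HTSeq 0.6.1p1, edgeR 3.24.3 and build hg19. A second file deposited by the authors gives CPM for 12558 genes. The 5 HTSeq summary lines (21.4 to 23.2% of the counts per library) were left out. Counts were fitted with edgeR 4.0.16 in R 4.3.3 (filterByExpr, TMM scaling, glmQLFit and glmQLFTest, Benjamini-Hochberg adjustment over all tested genes), called at 0.05, with normalised counts on the mean effective library size. The script was tested on simulated data with known changes. Alternatives were DESeq2 1.42.0, limma 3.58.1 on log2(CPM + 1), other scalings and filters, a replicate block, each library left out, and removal of a loess trend (span 0.5) on transcript length and GC. Gene models came from GENCODE 44 on GRCh37, in which 55538 of 57905 identifiers had a name, and folds from RNAfold 2.7.2. Members past the threshold were named, at most 12, and of each other repair list the 2 lowest and 2 highest called genes with ATM and ATR. Some genes and sites under this rule are not reported here. The members and lists were chosen with earlier results of these data known. Counts per library ranged from 19615715 to 25678499, and the smallest count of a member in a library was 19.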

Additional observations from a re-analysis of the deposited data

How the results depend on the processing

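The counts of 7 lower and 1 higher members were within 1.5 times under DESeq2, upper quartile scaling, no filter, a minimum of 10 counts and limma on the CPM values, with 6 to 9 lower and 1 higher. In these fits 5.91 to 14.8% of all tested genes were lower and 5.13 to 11.9% higher. Library size alone gave 13 lower, 0 higher and a median of -0.14, and the length and GC trend removed gave 0 lower, 9 other repair genes and a median of 0.0119. Of all tested genes 18% were lower and 4.74% higher with library size alone, and 4.58% and 6.38% with the trend removed. With single libraries left out the members ranged from 0 to 11 lower and 0 to 2 higher, the other repair genes from 10 to 42 and the median from -0.155 to -0.0510. The shares of all tested genes in those fits ranged from 6.68 to 15.3% lower and from 4.38 to 14.4% higher. With the trend removed TP53BP1 came to 0.0190, RAD50 to 0.0230, BRCA1 to 0.0117 and PRKDC to 0.0127, and the cause of the trend was not tested. The shared replicate numbers did not pair the libraries: same-numbered correlations of the deviations were -0.13, -0.11 and -0.33, and no sample correlated best with its own number. A replicate block gave 6 lower and 1 higher members, 5 of the lower ones shared (BRCA1 and SLX4 were not called and BRCA2 was), where 10.4% of all tested genes were lower and 7.76% higher. A replicate block with the trend removed gave 0 lower, 6 other repair genes and a median of 0.0185, with TP53BP1 at 0.0217, RAD50 at 0.0243, BRCA1 at 0.0131 and PRKDC at 0.0143. In that fit 3.71% of all tested genes were lower and 5.4% higher. Members with a counted site numbered 37 with no fold, 2 with a loop of exactly 7 bases and 6 with 30 bases folded on either side. The canonical transcript as a length was chosen after seeing the data. At these depths, of members with log2 fold changes of 0.18 to 0.25 in size, those with a control mean of 676 or more passed and those with 461 or fewer did not.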
